A study of Mus musculus with 15 samples.

Results

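Homeobox transcription factors were described in cortical neurons, astrocytes and microglia. The set comprised 43 genes, found by matching a list of symbols to the gene names of the deposited expression table, which held 20610 genes. The table held TPM, a measure of transcript abundance scaled for transcript length and for the total of each library, for 5 neuron, 5 astrocyte and 5 microglia libraries of polyA RNA. All 15 libraries came from the cortex of wild-type (WT) male mice at postnatal day 28 (P28), with the cells of each type taken out by magnetic isolation, and no treatment was labelled. The comparison asked how gene expression differed between these neural cell types. The labels do not say which animal a library came from or whether animals were pooled, so p-values measure the spread between libraries, which may be technical.

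Homeobox genes encode proteins with a homeodomain, a helical fold that in most of them binds short AT-rich DNA sites. Their classes include the DLX, EMX, LIM, POU, paired-type and zinc finger homeobox proteins and the TALE proteins (MEIS, PBX, PKNOX and TGIF), which often bind DNA together with other homeodomain partners. In the forebrain they set regional and cell identity during development, for instance DLX proteins in GABAergic interneurons and EMX, LHX2 and PAX6 in cortical progenitors, and many remain expressed in mature cells.

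The libraries carried the markers of their labels, but in those labelled neuron the vascular markers summed to far more than the pan-neuronal ones. Astrocyte markers summed to 24665 ± 1378 TPM (mean ± SD, n = 5, as throughout) in astrocytes and microglia markers to 96817 ± 19147 TPM in microglia. Pan-neuronal markers summed to 1250 ± 363 TPM for neurons, 226 ± 71.3 for astrocytes and 83.3 ± 58.4 for microglia. Endothelial markers summed to 32089 ± 4982 TPM for neurons, 2433 ± 266 for astrocytes and 558 ± 187 for microglia. Mural markers summed to 4295 ± 1106 TPM for neurons, 2270 ± 313 for astrocytes and 180 ± 67.8 for microglia. The part of vascular RNA in the homeobox values of the neuron libraries was not tested. Oligodendrocyte markers ranged from 254 to 69871 TPM among the microglia libraries and from 219 to 10380 TPM among the neuron libraries, with libraries 1 and 2 highest in both. No marker gene on these lists was listed at 0 in all 5 libraries of any cell type. TPM values keep no read depth.

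More of these homeobox genes reached 1 TPM in neuron and astrocyte libraries than in microglia libraries. Between 34 and 39 of the 43 genes reached 1 TPM in a neuron library (median 37), between 36 and 39 in an astrocyte library (median 38) and between 19 and 24 in a microglia library (median 22). In microglia 18 genes reached 1 TPM in all 5 libraries and 17 in none, against 32 and 3 in neurons and 36 and 4 in astrocytes. The share of all genes that reached 1 TPM was not counted, so these counts do not show a trait particular to homeobox genes. Tested genes as a whole also tended lower in microglia, with median log2 differences of 0.48 from neurons and 0.57 from astrocytes, given below. The summed level of the 43 homeobox genes was 272 ± 24.3 TPM for neurons, 1473 ± 159 for astrocytes and 247 ± 31.2 for microglia. A single gene, Hopx, made up 59.2% of the astrocyte sum, and Hopx with Dbx2 made up 77.8%. Without these 2 genes the sums were 245 ± 30.5, 326 ± 64.1 and 218 ± 33.7 TPM. The most abundant member was Zeb1 in neurons, with 10.7% of the sum, and Zeb2 in microglia, with 21.8%.

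**Figure D1:**
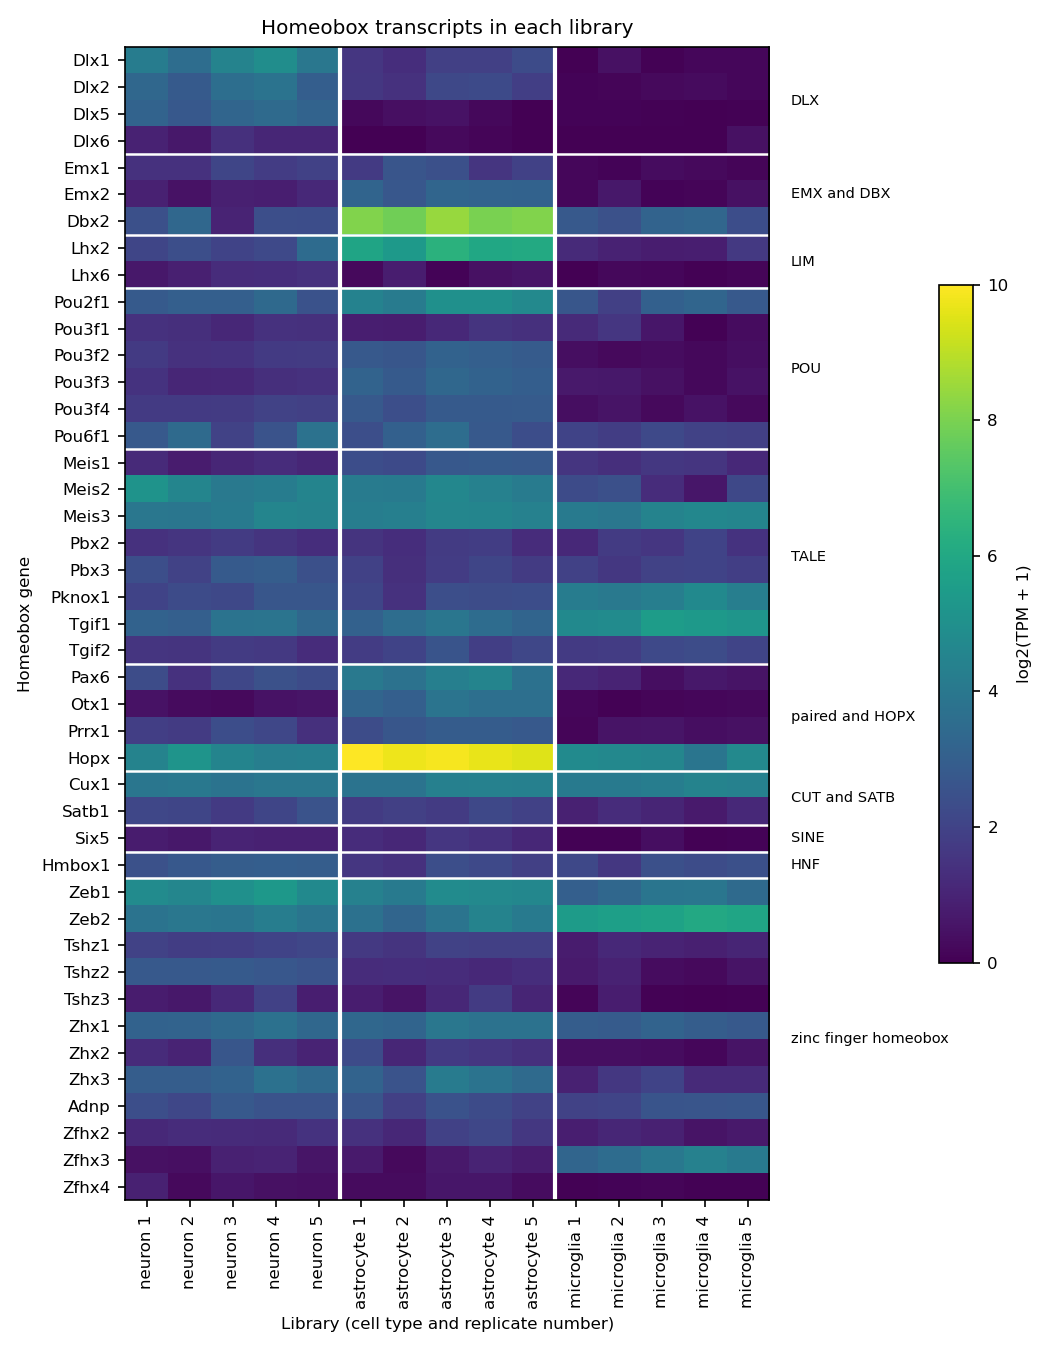
Level of each of the 43 homeobox genes (rows, by class) in each of the 15 libraries (columns), as log2(TPM + 1) on a colour scale. Hopx, Dbx2 and Lhx2 stand out in the 5 astrocyte columns, the DLX genes in the neuron columns and Zfhx3 in the microglia columns.

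Differences were taken on log2(TPM + 1) in a limma model of all 15 libraries. They are given as log2 differences or as folds of TPM + 1, which understate the difference of genes with few transcripts. A gene was called when its Benjamini-Hochberg adjusted p over all genes tested was below 0.05 and its log2 difference was 1 or more. Of the 43 genes, 40 passed the filter of at least 1 TPM in at least 5 libraries. Dlx6, Lhx6 and Zfhx4 did not, and Dlx5, Emx2, Otx1, Six5, Zhx2 and Zfhx3 passed through a single cell type, which favours a difference. The 3 comparisons share libraries and are not independent of each other.

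Against astrocytes, 4 of the 40 tested homeobox genes were called higher in neurons, where 12.9% of all tested genes were, and 10 were called higher in astrocytes, where 12.7% of all tested genes were. Against microglia, 15 were called higher in neurons (29.5% of all tested genes) and 4 higher in microglia (9.74%). Between astrocytes and microglia, 20 were called higher in astrocytes (32.3%) and 4 higher in microglia (10.2%). Without the 6 genes that passed through a single cell type, these counts were 3, 8, 13, 3, 16 and 3 of 34. The median log2 difference of the 40 genes was -0.17 for neurons minus astrocytes, 0.67 for neurons minus microglia and 0.93 for astrocytes minus microglia, beside -0.03, 0.48 and 0.57 over all tested genes. Median-of-ratios scaling moved the medians of all genes by -0.51 and -0.54 in the last 2 comparisons, so differences from microglia are to be read against those medians. Of the calls over all genes, 75.2% were higher in neurons than in microglia and 76.0% higher in astrocytes than in microglia, which became 55.8% and 53.4% with median-of-ratios scaling and 56.3% and 55.4% with quantile normalization. The bulk values cannot tell apart fewer cells that express a gene and less of its RNA per cell.

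Called higher than in both other cell types were 4 genes in neurons (Dlx1, Dlx2, Dlx5 and Tshz2; 9.58% of all tested genes met this rule), 10 in astrocytes (Hopx, Dbx2, Lhx2, Pou2f1, Pax6, Otx1, Emx2, Pou3f3, Pou3f2 and Meis1; 10.2%) and 4 in microglia (Zeb2, Tgif1, Pknox1 and Zfhx3; 7.42%). These are the enriched genes below.

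**Figure D2:**
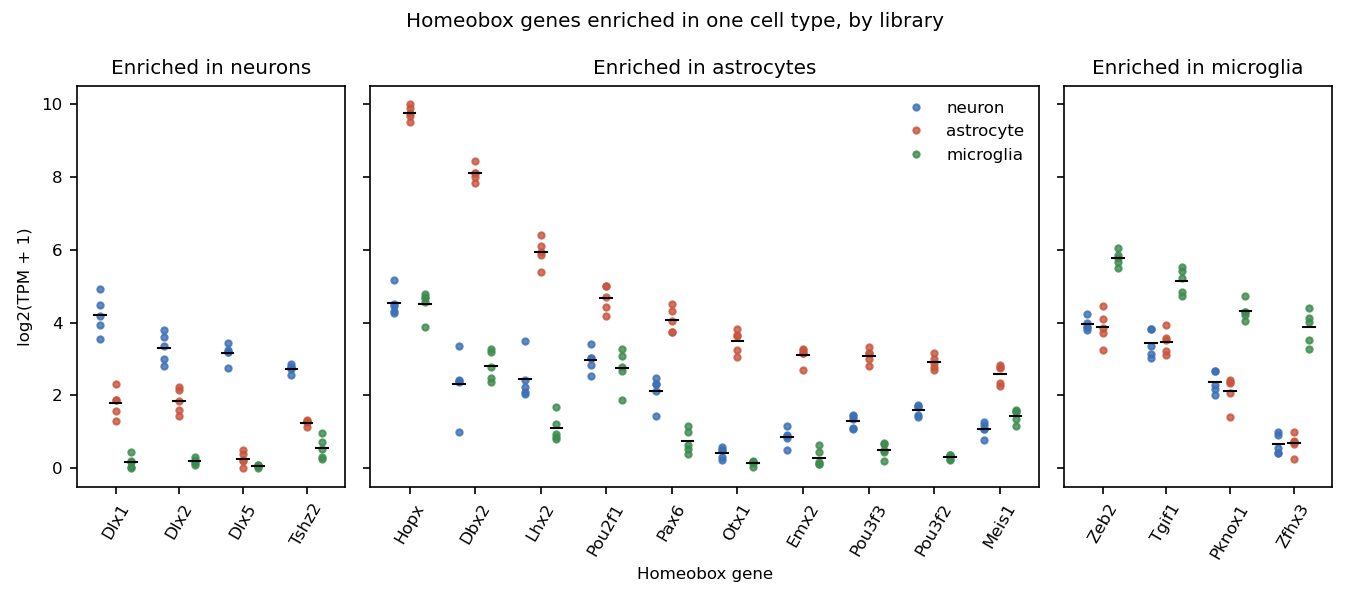
Level of the 18 enriched homeobox genes in every library, as log2(TPM + 1), with 1 point per library, colours for the 3 cell types and a black bar for the mean of 5 libraries. In each panel the points of the named cell type lie above those of the other cell types.

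The stretches just before a RefSeq transcription start of 6 enriched genes, 2 per cell type, are shown because genes rich and poor in CpG stood side by side among them. They are the 250 bases before the outermost RefSeq start (GRCm38.p6), written 5′ to 3′ on the strand of the gene with CG in capitals. The start of Zfhx3 in that table lies inside the GENCODE vM21 gene (chr8:107942644-108961630 on mm10), whose own outermost start is farther upstream, so its stretch is not the one before the gene. The RefSeq promoter table held 31 of the 43 genes.
Dlx2, chr2:71546755-71547004, minus strand: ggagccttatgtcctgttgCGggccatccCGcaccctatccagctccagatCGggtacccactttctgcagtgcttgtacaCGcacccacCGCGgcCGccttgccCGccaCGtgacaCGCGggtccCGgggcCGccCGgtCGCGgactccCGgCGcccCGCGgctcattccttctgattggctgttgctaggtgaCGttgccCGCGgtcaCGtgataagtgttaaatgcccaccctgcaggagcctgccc
Tshz2, chr2:169632259-169632508, plus strand: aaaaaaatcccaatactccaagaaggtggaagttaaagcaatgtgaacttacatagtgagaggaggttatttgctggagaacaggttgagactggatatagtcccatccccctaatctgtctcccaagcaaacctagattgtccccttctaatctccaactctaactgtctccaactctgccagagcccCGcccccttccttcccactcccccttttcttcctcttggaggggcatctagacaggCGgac
Lhx2, chr2:38339031-38339280, plus strand: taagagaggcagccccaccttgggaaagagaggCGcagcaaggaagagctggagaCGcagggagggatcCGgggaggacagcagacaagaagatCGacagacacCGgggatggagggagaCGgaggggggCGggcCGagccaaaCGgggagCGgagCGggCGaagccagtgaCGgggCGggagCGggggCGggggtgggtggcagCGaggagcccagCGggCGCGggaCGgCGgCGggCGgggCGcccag
Hopx, chr5:77115124-77115373, minus strand: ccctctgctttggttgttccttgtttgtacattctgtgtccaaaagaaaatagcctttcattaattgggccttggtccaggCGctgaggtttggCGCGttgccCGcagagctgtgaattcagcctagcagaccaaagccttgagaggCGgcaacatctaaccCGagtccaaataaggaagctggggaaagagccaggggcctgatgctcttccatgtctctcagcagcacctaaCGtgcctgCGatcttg
Zfhx3, chr8:108714394-108714643, plus strand: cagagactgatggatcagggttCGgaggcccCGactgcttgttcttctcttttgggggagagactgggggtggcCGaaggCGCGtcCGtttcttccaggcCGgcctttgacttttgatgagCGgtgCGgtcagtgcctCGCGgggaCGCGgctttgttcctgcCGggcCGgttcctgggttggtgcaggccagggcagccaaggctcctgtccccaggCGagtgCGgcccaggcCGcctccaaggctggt
Zeb2, chr2:45117443-45117692, minus strand: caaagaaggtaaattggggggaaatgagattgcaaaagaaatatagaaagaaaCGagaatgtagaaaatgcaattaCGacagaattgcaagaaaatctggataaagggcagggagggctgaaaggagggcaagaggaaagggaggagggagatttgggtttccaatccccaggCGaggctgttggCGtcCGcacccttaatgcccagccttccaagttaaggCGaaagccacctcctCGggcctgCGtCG
The stretches held 24 CG for Dlx2, 2 for Tshz2, 25 for Lhx2, 8 for Hopx, 18 for Zfhx3 and 9 for Zeb2. The median was 15 over the 31 homeobox genes, 15 over the 10637 tested genes in the table and 6 over all 27025 genes in it. Among the enriched genes with an entry the median was 22 for the 3 of neurons (range 2 to 24), 15 for the 9 of astrocytes (range 8 to 29) and 15 for the 3 of microglia (range 9 to 18). The stretches of Dlx1, Dbx2, Emx2, Meis1, Pou2f1 and Tgif1, counted here, overlap exons of their own gene in GENCODE vM21, and that of Zfhx3 lies inside its gene. These counts are therefore not all of sequence before a gene. The ranges of the 3 groups overlapped. The core letters bound by many homeodomains, TAAT on one strand and ATTA on the other, were found by a search of both strands in 13 of the 31 homeobox genes (41.9%), in 39.8% of the tested genes and in 55.4% of all genes. Of the 6 stretches shown, those of Tshz2, Hopx and Zeb2 held it.

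The DLX genes act in the making of forebrain GABAergic interneurons. Of the 4, 3 were called higher in neurons than in both other cell types (9.58% of all tested genes were), and Dlx6 was not tested. Together the 4 DLX genes summed to 37.0 ± 11.4 TPM for neurons, 5.53 ± 1.56 for astrocytes and 0.398 ± 0.232 for microglia. Dlx1 (chr2:71528113-71533981, the coordinates of genes being those of GENCODE vM21 on mm10) measured 17.1, 10.8, 21.3, 29.1 and 14.4 TPM in neuron libraries 1 to 5, 2.00, 1.45, 2.7, 2.68 and 3.93 in astrocytes and between 0 and 0.37 in microglia. The lowest neuron library lay above the highest astrocyte library, and the difference was 5.37-fold from astrocytes (log2 2.43 ± 0.23 SE, limma adjusted p = 9.82e-08) and 16.5-fold from microglia (adjusted p = 4.82e-11). Astrocytes were also called above microglia, by 3.07-fold (adjusted p = 6.25e-06).

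Dlx2 (chr2:71543408-71546754), the neighbour of Dlx1 and transcribed from the other strand, measured 9.23, 6.05, 11.1, 12.96 and 7.01 TPM in neurons, 2.06, 1.70, 3.48, 3.69 and 2.58 in astrocytes and at most 0.24 in microglia. Neuron library 4 was the highest and library 2 the lowest for Dlx1 and for Dlx2. Neurons stood 2.75-fold above astrocytes (adjusted p = 7.29e-06) and 8.72-fold above microglia (adjusted p = 2.06e-10). Dlx5 (chr6:6877805-6882085) measured 8.15, 5.72, 8.47, 9.84 and 8.18 TPM for neurons, 0.214 ± 0.161 for astrocytes and 0.046 ± 0.027 for microglia. Its difference was 7.44-fold from astrocytes (adjusted p = 1.22e-11) and 8.57-fold from microglia (adjusted p = 2.07e-12), with no overlap of the neuron libraries with the others. Dlx6, adjacent to Dlx5, stayed near the filter, at 0.94, 0.58, 1.60, 1.13 and 1.08 TPM in neurons, 0.20 and 0.09 in astrocyte libraries 3 and 4, 0.38 in microglia library 5, and 0 in the remaining libraries.

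The neuron-enriched genes kept different shares of their neuronal level in astrocytes: 13.8% for Dlx1, 29.1% for Dlx2, 2.65% for Dlx5 and 24.5% for Tshz2. The pan-neuronal marker sum in astrocytes was 18.1% of that in neurons, the inhibitory neuron sum 23.6%, the excitatory neuron sum 30.8%, the endothelial sum 7.58% and the mural sum 52.9%. The part of these other cells in the DLX and Tshz2 values was not tested.

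Among the neuron libraries, inhibitory markers summed to 1042, 935, 1887, 1928 and 3005 TPM and excitatory markers to 1253, 1272, 490.5, 457 and 1190 TPM. Dlx1 and Dlx2 did not follow the order of this inhibitory sum, as library 5 had the largest sum but the lowest level of both genes after library 2. The largest parts of the sum were Cck and Npy (913 ± 449 and 581 ± 335 TPM in neurons), and single markers differed in order. Like Dlx1 and Dlx2, Gad1 (19.95 TPM), Adarb2 (5.71) and Erbb4 (2.5) were highest in neuron library 4. Gad2 (13.94 TPM) and most of the other listed inhibitory markers were highest in library 5. Lhx6, a LIM gene of interneurons from the medial ganglionic eminence, measured 0.57, 0.86, 1.43, 1.51 and 1.66 TPM for neurons, 0.372 ± 0.257 for astrocytes and 0.09 ± 0.058 for microglia, and did not pass the filter.

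The genes of the interneuron programme that acts with or after DLX and LHX6 were higher in neurons in part. Of 13 listed, 9 were tested, with a median log2 difference of neurons minus astrocytes of 1.3 beside -0.03 over all tested genes. None was called lower in neurons (12.7% of all tested genes were) and 5 were called higher (12.9%). These included Gad1 and Gad2, the enzymes that make GABA, at 14.9 ± 5.01 and 8.76 ± 3.26 TPM in neurons against 2.77 ± 1.25 and 0.702 ± 0.304 in astrocytes, and the neuropeptide genes Npy (581 ± 335 against 44.7 ± 11.4) and Sst (156 ± 119 against 13.5 ± 7.14). Against microglia the median was 2.89 beside 0.48 over all tested genes. Here 6 were called higher in neurons (29.5% of all tested genes) and 2 higher in microglia (9.74%). The latter included Maf (25.8 ± 5.89 TPM in microglia, 0.652 ± 0.143 in neurons), which is also a transcription factor of macrophages. Between astrocytes and microglia 4 were called higher in astrocytes (32.3% of all tested genes), among them Sox6 (33.4 ± 11.7 against 2.64 ± 1.45). Another 2 were called higher in microglia (10.2%), and the median was 0.65 beside 0.57.

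Cofactors that homeodomain proteins work with, such as the LIM-only and LDB proteins that bind LIM homeodomain proteins and the Groucho-type TLE repressors, were compared next. All 23 of those in the table were tested. Between neurons and astrocytes the median log2 difference was 0.28 beside -0.03 over all tested genes. Here 2 were called higher in neurons (12.9% of all tested genes) and 3 in astrocytes (12.7%). The former were Lmo2 (115 ± 32.1 against 20.4 ± 5.28 TPM) and Lmo3 (24.2 ± 5.78 against 6.40 ± 0.806), and the latter included Lmo1 (21.6 ± 4.74 against 50.9 ± 9.22) and Tle4 (3.76 ± 0.636 against 14.4 ± 4.96). Against microglia 10 were called higher in neurons and none lower (median log2 difference 0.94 beside 0.48 over all tested genes, of which 29.5% were called higher), and 12 higher and 1 lower in astrocytes (median 1.0 beside 0.57, with 32.3% of all tested genes called higher). The gene called lower in astrocytes was Lmo2, an endothelial and blood cell gene as well, at 146 ± 37.9 TPM in microglia. Lmo4 measured 67.9 ± 18.1 TPM in neurons and 11.9 ± 1.59 in microglia, and Ldb2 measured 25.8 ± 5.15 and 3.83 ± 1.90, both called. Endothelial markers, highest in the neuron libraries, are given above, and their part in the Lmo2 values was not tested.

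The astrocyte-enriched genes were led by Hopx (chr5:77086988-77115121), an atypical homeodomain protein that does not bind DNA by itself and is known from radial glia. It measured 1016, 864.5, 939.8, 810.4 and 726 TPM in astrocyte libraries 1 to 5, 21.0, 35.0, 21.9, 18.4 and 19.0 in neurons and 26.4, 24.5, 22.8, 13.7 and 25.0 in microglia. Astrocytes were 37.0-fold above neurons (log2 difference of neurons minus astrocytes -5.21 ± 0.19 SE, adjusted p = 2.19e-13) and 37.8-fold above microglia (adjusted p = 6.78e-14). Neurons and microglia overlapped (log2 difference 0.03, adjusted p = 0.902).

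Dbx2 (chr15:95623563-95655960), a progenitor gene of the spinal cord and brain, measured 275, 226, 346, 254 and 275 TPM in astrocytes, 4.37, 9.21, 0.99, 4.23 and 4.15 in neurons and 5.86, 4.56, 8.09, 8.74 and 4.15 in microglia. The astrocyte libraries lay far above all others, 55.4-fold from neurons (adjusted p = 4.38e-11) and 38.8-fold from microglia (adjusted p = 4.73e-11). Neuron values spanned 9.30 times from lowest to highest.

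The LIM gene Lhx2 (chr2:38339281-38369733), a selector of cortical identity, measured 56.8, 41.0, 83.8, 60.7 and 67.1 TPM in astrocytes, 3.26, 4.32, 3.08, 3.67 and 10.2 in neurons and 1.31, 0.92, 0.76, 0.81 and 2.19 in microglia. In neurons and in microglia library 5 was the highest. Astrocytes were 11.2-fold above neurons (adjusted p = 5.04e-09) and 28.6-fold above microglia (adjusted p = 1.87e-11). Neurons were called 2.55-fold above microglia (adjusted p = 2.03e-04), a call lost under median-of-ratios scaling (log2 0.96) and quantile normalization (0.74).

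In neurons the astrocyte marker sum was 0.930% of that in astrocytes, and in microglia 2.15%. Relative to astrocytes, Dbx2 stood at 1.67% in neurons and 2.28% in microglia, and Hopx at 2.65% and 2.58%. Lhx2 stood at 7.92% and 1.94%, Otx1 at 3.35% and 1.05%, and the other 6 astrocyte-enriched genes at 10.9% to 31.4% in neurons and 3.15% to 34.1% in microglia. Ependymal markers in neurons were 66.3% of their level in astrocytes, and the part of other cells in these values was not tested.

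The paired-type and EMX genes all had their highest mean in astrocytes, but only Pax6, Otx1 and Emx2 were enriched there, and Prrx1 and Emx1 were not. Pax6 (chr2:105668900-105697364), a master gene of eye and cortical progenitors, measured 15.4, 12.5, 18.8, 21.8 and 12.4 TPM in astrocytes, 3.97, 1.72, 3.39, 4.60 and 3.93 in neurons and 0.31 to 1.22 in microglia. The 3 cell types did not overlap, with astrocytes 3.82-fold above neurons (adjusted p = 9.12e-07) and 10.03-fold above microglia (adjusted p = 2.73e-10). Neurons were called 2.62-fold above microglia (adjusted p = 2.21e-05), which quantile normalization took under the threshold of size (log2 0.77).

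Otx1 (chr11:21994764-22002897), a gene of deep-layer cortical development, measured 8.48, 7.26, 13.2, 11.7 and 11.5 TPM in astrocytes but 0.18 to 0.50 in neurons and 0.03 to 0.16 in microglia. Astrocytes were 8.34-fold above neurons (adjusted p = 1.69e-11) and 10.1-fold above microglia (adjusted p = 1.68e-12). Prrx1, a mesenchymal gene, measured 2.82 ± 0.981, 5.66 ± 1.05 and 0.332 ± 0.147 TPM in neurons, astrocytes and microglia. It was called higher than in microglia in both, by 2.81-fold (adjusted p = 1.06e-06; log2 0.92 under quantile normalization) and 4.97-fold (adjusted p = 2.92e-09), while fibroblast markers summed to 148 ± 48.6, 201 ± 23.6 and 26.9 ± 7.13 TPM. Their part in the Prrx1 values was not tested.

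Emx2 (chr19:59458372-59465357), which patterns the cortex, measured 8.42, 5.54, 8.63, 7.98 and 7.90 TPM in astrocytes, 0.90, 0.42, 0.85, 0.79 and 1.25 in neurons and 0.12, 0.56, 0.08, 0.09 and 0.36 in microglia. Astrocytes were 4.73-fold above neurons (adjusted p = 2.8e-09) and 7.01-fold above microglia (adjusted p = 4.11e-11). Its paralog Emx1, used to mark the cortical excitatory lineage, measured 1.70, 1.72, 3.25, 2.39 and 2.78 TPM in neurons and 2.22, 5.28, 4.38, 1.91 and 2.78 in astrocytes, which overlapped (log2 difference -0.32, adjusted p = 0.194). Both were called above microglia (0.156 ± 0.074 TPM), by 2.87-fold (adjusted p = 2.58e-06) and 3.58-fold (adjusted p = 2.2e-07).

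The POU genes summed to 21.8 ± 3.68 TPM for neurons, 52.6 ± 10.5 for astrocytes and 10.8 ± 1.71 for microglia. Of the 6, 3 were enriched in astrocytes, where 10.2% of all tested genes were. Pou2f1 (chr1:165865154-166002678), the broadly expressed octamer-binding factor OCT1, measured 20.6, 17.1, 31.2, 31.0 and 24.9 TPM in astrocytes, 6.18, 7.13, 7.14, 9.56 and 4.81 in neurons and 5.43, 2.69, 7.45, 8.68 and 5.89 in microglia. It was 3.24-fold higher in astrocytes than in neurons (adjusted p = 1.32e-05) and 3.79-fold higher than in microglia (adjusted p = 1.46e-06), and neurons and microglia overlapped.

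Pou3f2 (chr4:22482780-22488366) and Pou3f3 (chr1:42695768-42703176), which encode the neural factors BRN2 and BRN1, had the same order of cell types. Pou3f2 measured 5.87, 5.46, 7.96, 7.06 and 6.37 TPM in astrocytes, 2.25, 1.67, 1.78, 2.22 and 2.36 in neurons and 0.17 to 0.30 in microglia. Pou3f3 measured 7.99, 6.03, 9.11, 7.92 and 6.95 TPM in astrocytes, 1.78, 1.12, 1.15, 1.54 and 1.72 in neurons and 0.16 to 0.61 in microglia. In both genes the 3 cell types did not overlap. Astrocytes were above neurons by 2.46-fold for Pou3f2 (adjusted p = 2.42e-07) and 3.49-fold for Pou3f3 (adjusted p = 1.62e-08), and above microglia by 6.02-fold (adjusted p = 8.46e-12) and 6.04-fold (adjusted p = 3.85e-11).

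Pou3f4, which encodes BRN4, measured 5.91, 4.25, 6.05, 6.13 and 6.24 TPM in astrocytes, 2.21 to 2.95 in neurons and 0.19 to 0.45 in microglia. It was 5.10-fold higher in astrocytes than in microglia (adjusted p = 4.82e-11) and 2.66-fold higher in neurons than in microglia (adjusted p = 5.85e-08). Its difference of neurons minus astrocytes, -0.94, lay just under the size threshold and passed it without astrocyte library 2 (-1.02). Neurons were called above microglia for Pou3f2 (2.44-fold, adjusted p = 1.25e-07) but not for Pou3f3 (log2 0.79). The Pou3f2 and Pou3f4 calls against microglia fell under the size threshold with quantile normalization (log2 0.73 and 0.84).

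Pou3f1, the gene of the myelination factor OCT6, was called in no comparison and measured 1.56 ± 0.225 TPM in neurons, 1.24 ± 0.496 in astrocytes and 1.28, 2.03, 0.53, 0.05 and 0.26 in microglia libraries 1 to 5. The 2 highest microglia libraries were those with the most oligodendrocyte markers, 69871 and 52140 TPM against 254 to 8193 in the other 3. Without these 2 libraries neurons were called above microglia (log2 1.01). The same 2 libraries had the most pan-neuronal markers, 122.5 and 145 TPM. The part of either kind of RNA in the Pou3f1 values was not tested. Pou6f1 measured 5.84, 10.1, 2.93, 4.85 and 12.8 TPM for neurons, 6.50 ± 2.78 for astrocytes and 2.97 ± 0.412 for microglia. Its log2 difference of neurons minus microglia, 0.93, passed the size threshold without neuron library 3 (1.16) or 4 (1.02).

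The TALE genes, whose products partner other homeodomain proteins, summed to 64.2 ± 6.36 TPM for neurons, 65.8 ± 10.4 for astrocytes and 86.4 ± 14.9 for microglia, with different members leading in each. Meis1 (chr11:18879817-19018985) measured 4.10, 3.75, 5.73, 6.15 and 5.93 TPM in astrocytes, 0.71 to 1.42 in neurons and 1.23 to 2.06 in microglia. Astrocytes were 2.86-fold above neurons (adjusted p = 3.84e-07) and 2.22-fold above microglia (adjusted p = 5.06e-06), the latter under the size threshold with median-of-ratios scaling (log2 0.65) and quantile normalization (0.53). The neuron and microglia libraries overlapped.

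Meis2, a gene of striatal and cortical neurons, measured 34.3, 22.6, 15.6, 17.4 and 22.1 TPM in neurons, 16.7, 16.1, 24.1, 19.8 and 17.1 in astrocytes and 3.88, 4.39, 1.38, 0.53 and 3.51 in microglia. Neurons and astrocytes overlapped and both lay above microglia, by 6.71-fold (adjusted p = 2.48e-07) and 5.81-fold (adjusted p = 5.9e-07). The 3 microglia libraries with the most Meis2, libraries 1, 2 and 5, were also those with the most pan-neuronal marker RNA, between 106 and 145 TPM against 27.2 and 15.5 in libraries 3 and 4. Its part in the microglia values of Meis2 was not tested. Meis3 measured 17.7 ± 3.76, 20.4 ± 2.22 and 19.7 ± 4.05 TPM for neurons, astrocytes and microglia and was called in no comparison.

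Of the other TALE genes, Pknox1 and Tgif1 were enriched in microglia. Pknox1 (chr17:31564734-31607693), whose product PREP1 pairs with PBX proteins, measured 17.6, 15.6, 18.5, 25.5 and 18.5 TPM in microglia, 3.06, 3.84, 3.49, 5.36 and 5.36 in neurons and 3.48 ± 1.11 in astrocytes. The lowest microglia library lay above all neuron and astrocyte libraries, by a mean of 3.87-fold from neurons (adjusted p = 1.88e-07) and 4.57-fold from astrocytes (adjusted p = 3.51e-08).

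Tgif1 (chr17:70844205-70853546), a repressor of TGF-beta and retinoid signalling, measured 25.6, 27.6, 44.9, 42.0 and 36.1 TPM in microglia, 7.77, 7.11, 13.2, 13.2 and 9.16 in neurons and 7.67, 10.8, 14.4, 10.6 and 8.23 in astrocytes. Microglia were 3.28-fold above neurons (adjusted p = 1.18e-06) and 3.19-fold above astrocytes (adjusted p = 1.45e-06), and neurons and astrocytes overlapped. Its paralog Tgif2 measured 1.93 ± 0.359, 3.29 ± 1.02 and 3.07 ± 0.757 TPM for neurons, astrocytes and microglia and was called in no comparison. Nor were the PBX genes Pbx2 (1.86, 1.92 and 2.07 TPM) and Pbx3 (4.88 ± 1.5, 2.49 ± 0.613 and 2.7 ± 0.385 TPM), Pbx3 with a log2 difference of neurons minus astrocytes of 0.73 (adjusted p = 0.00337).

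The zinc finger homeobox genes included the other microglia-enriched genes. Zeb2 (chr2:44983632-45117395), a repressor needed for microglial and other myeloid identity and for interneuron migration, measured 44.5, 49.2, 53.6, 65.0 and 57.2 TPM in microglia, 13.02, 14.75, 13.6, 17.7 and 13.8 in neurons and 12.2, 8.51, 13.4, 21.0 and 16.0 in astrocytes. Microglia were 3.51-fold above neurons (adjusted p = 1.05e-07) and 3.72-fold above astrocytes (adjusted p = 4.97e-08). Its paralog Zeb1, also a repressor, had the opposite order, with 27.4, 22.9, 31.6, 38.8 and 25.8 TPM in neurons, 19.9, 15.9, 27.5, 25.4 and 23.7 in astrocytes and 7.15, 9.23, 13.7, 14.1 and 10.02 in microglia.

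Neurons were called 2.59-fold above microglia for Zeb1 (adjusted p = 6.83e-06; log2 0.80 and below the size threshold with median-of-ratios scaling), and neurons and astrocytes overlapped. The astrocyte call of Zeb1 against microglia, 2.00-fold (adjusted p = 1.91e-04), sat at the size threshold. It was lost without astrocyte library 3, 4 or 5 or microglia library 1, 2 or 5 (log2 0.88 to 0.98) and under both scalings (0.36 and 0.49).

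Zfhx3 (chr8:107942644-108961630), a large zinc finger homeobox protein studied in neuronal differentiation and circadian rhythm, measured 8.72, 10.6, 15.2, 20.1 and 16.6 TPM in microglia. It measured 0.35, 0.33, 0.89, 1.01 and 0.48 in neurons and 0.66, 0.20, 0.59, 1.01 and 0.68 in astrocytes. Microglia were 9.22-fold above neurons (log2 difference of neurons minus microglia -3.20 ± 0.21 SE, adjusted p = 3.71e-10) and 9.11-fold above astrocytes (adjusted p = 2.97e-10). Its relatives did not share this order: Zfhx2 measured 1.40 ± 0.207, 2.23 ± 0.903 and 0.764 ± 0.247 TPM and was called in no comparison, and Zfhx4 measured 0.452, 0.348 and 0.056 TPM and did not pass the filter.

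The microglia marker sum in neurons was 0.110% of that in microglia and in astrocytes 0.214%. In neurons Zfhx3 stood at 4.31% of its microglial level, Pknox1 at 22.1%, Tgif1 at 28.6% and Zeb2 at 27.1%, and in astrocytes these shares were 4.42%, 18.2%, 29.3% and 26.4%. The part of microglia RNA in these values was not tested. Border macrophage markers, which a microglia isolation can also hold, summed to 1434 ± 256 TPM in microglia and 47.0 and 61.2 TPM in neurons and astrocytes, and their part was not tested.

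The teashirt genes divided by paralog. Tshz2 (chr2:169633013-170071816), a gene of subsets of cortical projection neurons, measured 5.87, 5.87, 6.21, 5.58 and 4.92 TPM in neurons, 1.40, 1.5, 1.40, 1.21 and 1.46 in astrocytes and 0.64, 0.95, 0.25, 0.19 and 0.44 in microglia. The libraries of neurons and of astrocytes lay close together, while those of microglia spanned 5 times from lowest to highest. Neurons were 2.79-fold above astrocytes (adjusted p = 1.37e-07) and 4.54-fold above microglia (adjusted p = 3.67e-10). Tshz1 measured 2.89 ± 0.316, 2.48 ± 0.466 and 0.952 ± 0.193 TPM, with a neuron difference from microglia of 1.99-fold just under the size threshold (adjusted p = 4.25e-06) that passed it without neuron library 2 or 3 or microglia library 2, 3 or 5 (log2 1.01 to 1.04). Tshz3 measured 0.71, 0.56, 1.22, 2.84 and 0.77 TPM in neurons, 0.76, 0.44, 1.18, 2.34 and 1.03 in astrocytes and 0.09, 0.76, 0.04, 0.02 and 0.05 in microglia. Library 4 was the highest in neurons and in astrocytes, and no comparison was called. Without microglia libraries 1 and 2, where Tshz3 was 0.09 and 0.76 TPM, neurons were called above microglia for Tshz3 (log2 1.01). These 2 libraries had the most oligodendrocyte and pan-neuronal markers, whose part in the Tshz3 values was not tested.

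The ZHX genes encode zinc finger and homeobox repressors. Zhx3 and Zhx2 were called lower in microglia than in neurons (29.5% of all tested genes were) and in astrocytes (32.3%). Only the Zhx3 calls held under both scalings. Zhx3 measured 8.65 ± 2.39, 10.5 ± 4.55 and 1.72 ± 0.854 TPM and was called above microglia in neurons (3.60-fold, adjusted p = 1.05e-05) and astrocytes (4.10-fold, adjusted p = 3.08e-06). Zhx2 measured 1.34, 1.0, 5.46, 1.53 and 0.97 TPM for neurons, 2.16 ± 1.04 for astrocytes and 0.29 ± 0.116 for microglia. It was called above microglia in neurons (2.12-fold, adjusted p = 0.0021) and astrocytes (2.36-fold, adjusted p = 6.47e-04), but the neuron call was lost without neuron library 3 (log2 0.77) and both were lost under both scalings. Zhx1, at 9.45, 11.4 and 6.75 TPM, and the chromatin factor Adnp, at 4.71, 3.87 and 4.34 TPM, were called in no comparison.

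Among the remaining genes, Satb1, a chromatin organiser of the CUT class, measured 3.41 ± 0.929 TPM for neurons, 2.73 ± 0.472 for astrocytes and 1.05 ± 0.303 for microglia. It was called 2.14-fold higher in neurons than in microglia (adjusted p = 1.38e-05), a call lost without neuron library 5 (log2 0.99) and under median-of-ratios scaling (0.73) and quantile normalization (0.47). Six5 measured 0.806 ± 0.174, 1.48 ± 0.361 and 0.102 ± 0.111 TPM and was called 2.24-fold higher in astrocytes than in microglia (adjusted p = 2.16e-07), just under the size threshold with median-of-ratios scaling (log2 0.98) and at 0.78 with quantile normalization. Cux1, known from upper-layer neurons but widely expressed, was called in no comparison and measured 14.3 ± 0.900, 16.9 ± 3.64 and 18.3 ± 2.39 TPM. Hmbox1, a telomere-binding homeobox protein, measured 6.13 ± 1.0, 2.85 ± 1.07 and 3.69 ± 1.0 TPM, with a log2 difference of neurons minus astrocytes of 0.92 that passed the size threshold without neuron library 1 (1.01) or astrocyte library 3 (1.05).

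In all, 13 of the 40 tested genes were called in no comparison: Pou3f1, Pou6f1, Meis3, Pbx2, Pbx3, Tgif2, Cux1, Hmbox1, Tshz1, Tshz3, Zhx1, Adnp and Zfhx2. The share of all tested genes called in no comparison was not counted.

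**Figure D3:**
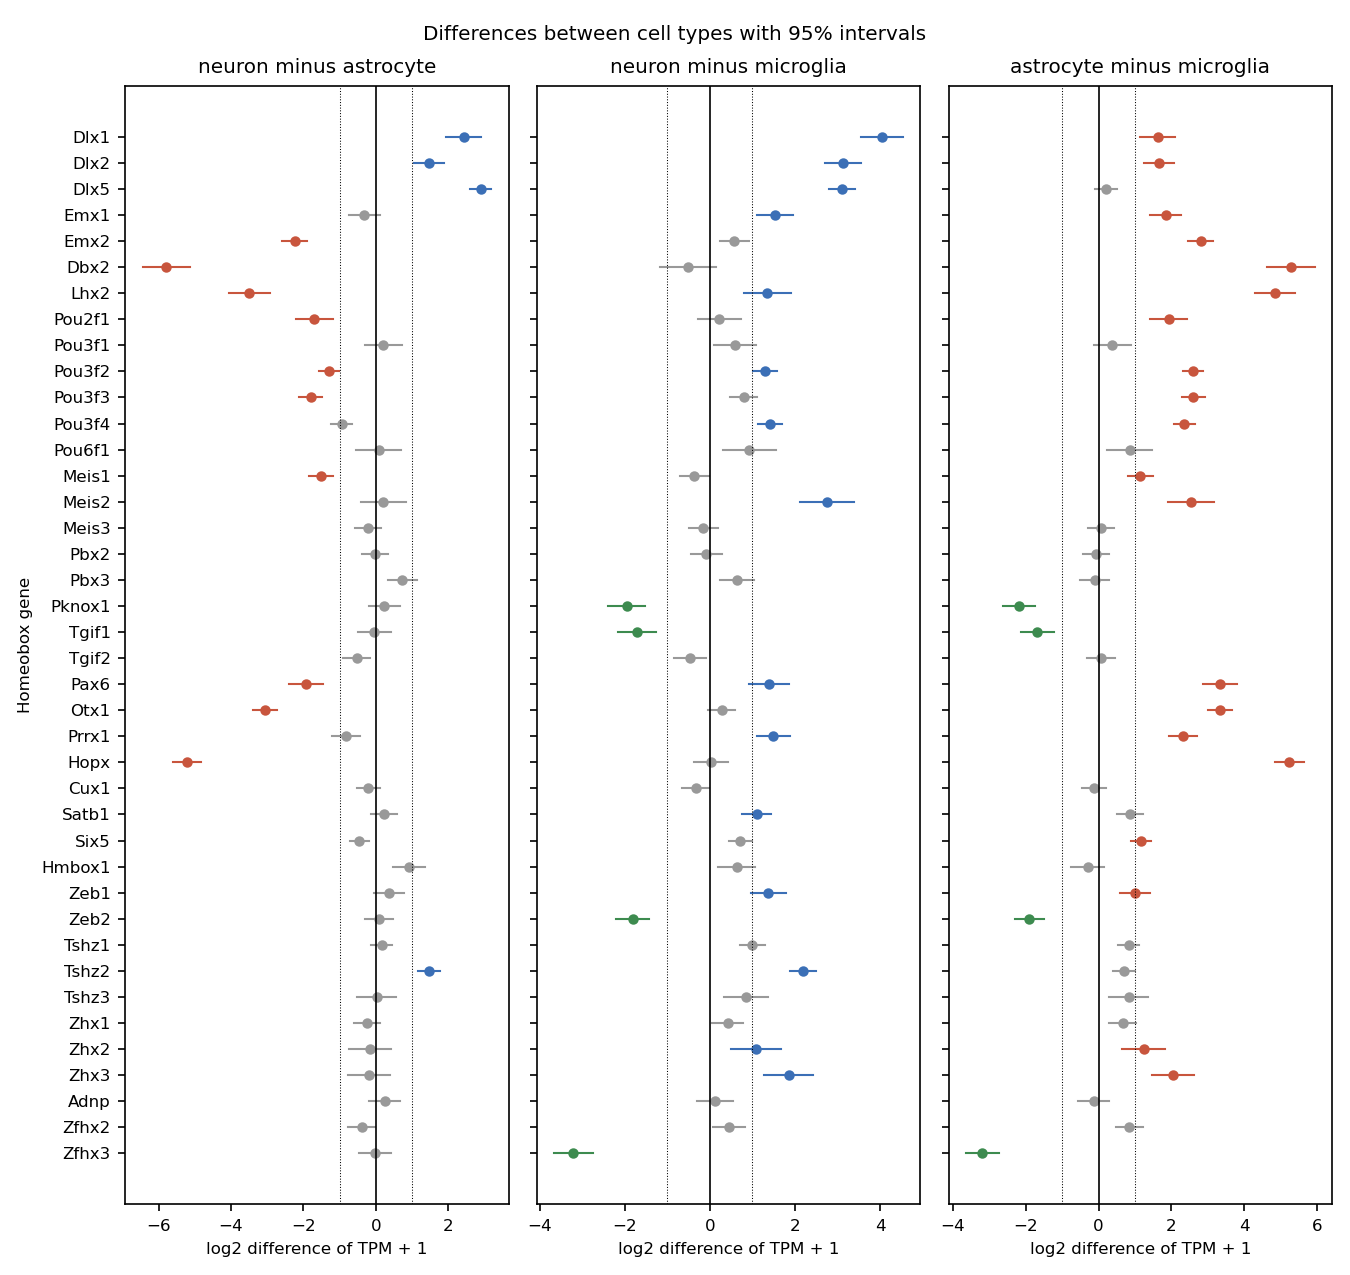
Log2 difference of TPM + 1 between cell types for the 40 tested homeobox genes (rows), as point and 95% interval from the limma model, with dotted lines at a difference of 1. Coloured points were called higher in neurons (blue), astrocytes (red) or microglia (green) and grey points were not called. Hopx and Dbx2 lie farthest toward astrocytes and Zfhx3 farthest toward microglia.

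Close relatives were compared directly by their balance within each library, the log2 ratio of the TPM + 1 of 2 paralogs, in which the scaling of a whole library largely cancels. This comparison was chosen after the values had been seen. It used the same values as the calls above and gave no separate support for them. Dlx5, Emx2, Zhx2 and Zfhx3, which stand in some of the pairs, passed the filter through a single cell type. For 23 pairs of one family, 43 tests were made where at least 1 gene of the pair averaged 1 TPM or more in both cell types. The balance differed by a log2 of at least 1 with an adjusted p below 0.05 (exact two-sided permutation test over libraries, Benjamini-Hochberg over the 43 tests) in 22 tests and for 14 pairs. Of these tests 9 were between neurons and astrocytes, 6 between neurons and microglia and 7 between astrocytes and microglia. The smallest p that 5 against 5 libraries allow is 0.00794, adjusted 0.0137, and 21 of the 22 tests reached it.

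In the zinc finger families the log2 ratio of Zeb1 to Zeb2 was 0.94 ± 0.22 (SD, n = 5) in neurons, 0.65 ± 0.28 in astrocytes and -2.24 ± 0.23 in microglia, so that Zeb1 exceeded Zeb2 in every neuron and astrocyte library and Zeb2 exceeded Zeb1 in every microglia library. That of Zfhx2 to Zfhx3 was 0.59 ± 0.33, 0.96 ± 0.24 and -3.06 ± 0.61. That of Zhx1 to Zhx3 was 0.13 ± 0.15, 0.18 ± 0.32 and 1.56 ± 0.35. In each of these pairs the microglia libraries did not overlap with the others (each adjusted exact permutation p = 0.0137).

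In the TALE class, the log2 ratio of Meis1 to Meis2 was -3.42 ± 0.47 in neurons, -1.69 ± 0.22 in astrocytes and -0.30 ± 0.91 in microglia, and all 3 differed from each other. That of Meis2 to Meis3 was 0.30 ± 0.60 in neurons, -0.13 ± 0.12 in astrocytes and -2.60 ± 1.03 in microglia, which differed from both. That of Tgif1 to Tgif2 was 1.89 ± 0.31 in neurons, 1.40 ± 0.22 in astrocytes and 3.14 ± 0.11 in microglia, differing in microglia from both. The balance of Meis1 to Meis3 between astrocytes and microglia (log2 1.08) fell under the size threshold without microglia library 5 (0.96). Between neurons and astrocytes, the ratio of Emx1 to Emx2 went from 0.86 ± 0.26 to -1.06 ± 0.64, of Pou3f1 to Pou3f3 from 0.06 ± 0.14 to -1.96 ± 0.32, of Dlx2 to Dlx5 from 0.15 ± 0.23 to 1.59 ± 0.38 and of Tshz1 to Tshz2 from -0.78 ± 0.22 to 0.53 ± 0.24, each without overlap. The ratio of Tshz2 to Tshz3 was 1.46 higher in neurons than in astrocytes with overlapping libraries (exact permutation adjusted p = 0.0263), a call lost without neuron library 1 (1.38, adjusted p = 0.0506).

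**Figure D4:**
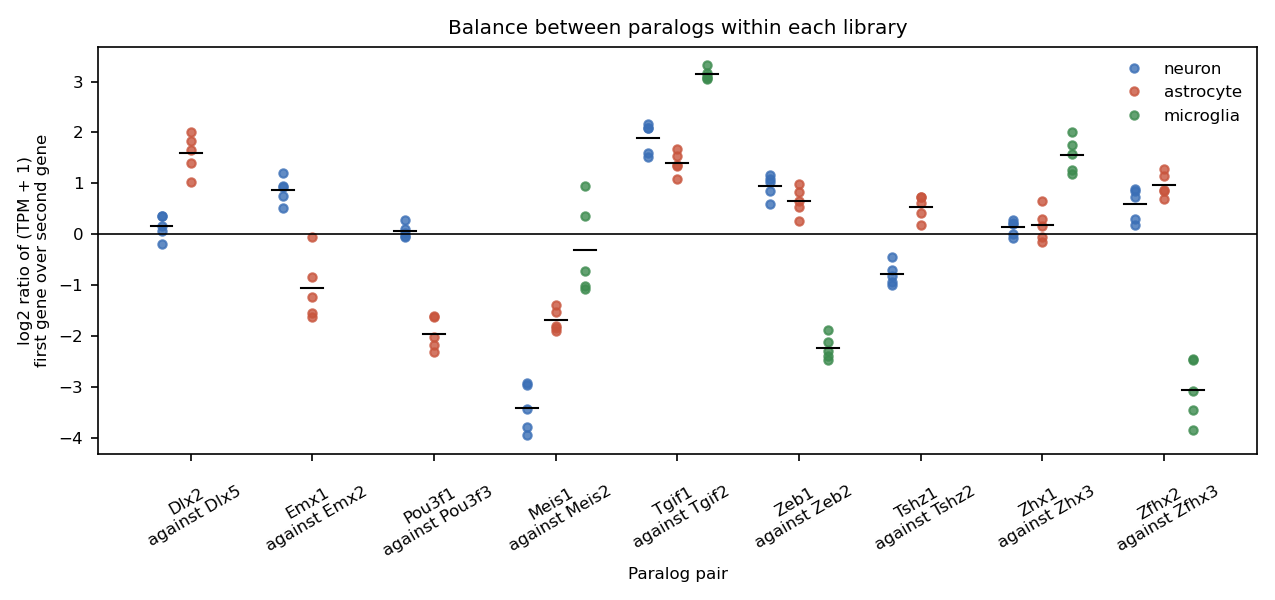
Log2 ratio of TPM + 1 of the first over the second gene for 9 paralog pairs, with 1 point per library, colours for the 3 cell types and a black bar for the mean. A cell type is left out where both genes averaged under 1 TPM. The Zeb1 to Zeb2 and Zfhx2 to Zfhx3 ratios lie above 0 in neurons and astrocytes and below 0 in microglia.

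Reads from a gene on the other strand can enter values of this kind, as strandedness was not given in the sources used here. In GENCODE vM21 on mm10, 16 of the 43 genes have an exon that overlaps a gene of the opposite strand. Among them are the enriched genes Dlx1, Tshz2, Emx2, Hopx, Meis1, Pou2f1, Pknox1 and Zeb2, and also Dlx6 and Zhx3. The values of all of these are uncertain to that extent. For 2 of the 16 genes the gene on the opposite strand is in the expression table: Cd247 for Pou2f1 and Plcg1 for Zhx3.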

How the data were processed

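The values were TPM per gene, deposited by the authors in a table of 15 columns that summed to between 999999.55 and 1000000.54. Every column was used. Per the labels, polyA RNA was amplified as cDNA and sequenced as paired reads of 150 nt. The submitters' processing notes name Trim Galore 0.6.4, STAR 2.7.1a, RSEM 1.2.28, DESeq2 1.36.0 and the mm10 genome without their roles. TPM keeps no depth, so its effect on precision is unknown. No pair of libraries held identical values, and 63 rows shared a symbol with another row.

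Values were taken as log2(TPM + 1). Genes reaching 1 TPM in 5 or more libraries, 13351 in all, entered a fit in limma 3.58.1 (R 4.3.3) with a mean per cell type, variances that follow expression, and Benjamini-Hochberg adjustment over all of them. Differences are first cell type minus second. Paralog ratios, marker sums and promoter counts were computed in Python 3.11.15 with numpy 2.4.6, scipy 1.17.1 and pandas 2.3.3, and figures drawn with matplotlib 3.10.9. The limma steps were tested on simulated data. Promoter sequences are from RefSeq on GRCm38.p6.

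The 43 genes, the marker and gene lists and the rule for naming genes were chosen with earlier results of these data known. By that rule all 43 genes are named, with values per library where a called log2 difference reached 2 or libraries of one cell type spanned more than 4 times. Values per library of other genes, the paralog comparison and the choice of promoters to show were added after their values were seen. From the other lists, up to 4 called genes with the largest differences were named. Results for some of the genes so chosen are left out.

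Cell types share replicate numbers. After removal of group means, libraries of one number correlated at 0.216 to 0.382 between neurons and microglia in all 5 pairs. The p-values given above do not use a pairing. The replicate number entered only in a rerun of the fit, as a block. The correlations were -0.0329 to 0.233 for neurons and astrocytes and -0.0110 to 0.249 for astrocytes and microglia. The labels do not state a pairing. Results were recomputed with a pseudocount of 0.1, without the filter or at 5 TPM, with quantile normalization or median-of-ratios scaling, and with fits of 2 cell types, no variance trend, array weights, the replicate number as a block, and libraries left out.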

Additional observations from a re-analysis of the deposited data

Results flagged for a closer look

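Among the 129 combinations of a homeobox gene and a cell type, 12 had a single library far from the other 4, and 8 of these had a highest value of at least 1 TPM. Chance alone flags about 1 in 20 groups of this kind. In neurons, library 5 stood apart for Lhx2 (10.2 TPM against 3.08 to 4.32), library 2 for Hopx (35.0 against 18.4 to 21.9), library 3 for Zhx2 (5.46 against 0.97 to 1.53), library 4 for Tshz3 (2.84 against 0.56 to 1.22) and library 3 for Pou3f1 (1.17 against 1.57 to 1.72). In astrocytes, library 2 was the low one for Emx2 (5.54 against 7.90 to 8.63) and for Pou3f4 (4.25 against 5.91 to 6.24). In microglia, library 4 was low for Hopx (13.7 against 22.8 to 26.4). The remaining flags, all in microglia, were at values under 1 TPM: Dlx5 in library 4 (0 against 0.05 to 0.07), Dlx6 in library 5 (0.38 against 0), Six5 in library 3 (0.30 against 0.04 to 0.07) and Tshz3 in library 2 (0.76 against 0.02 to 0.09).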

How the results depend on the processing

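No called difference of a tested homeobox gene changed sign under the alternatives run. Of the 120 differences, 9 with median-of-ratios scaling and 11 with quantile normalization did change sign, none of them called. The count called higher in neurons than in microglia, 15, became 23 with a pseudocount of 0.1, 9 of 24 tested genes with a filter of 5 TPM and 8 with quantile normalization, while it was 11 with median-of-ratios scaling. The other counts of called and enriched genes stayed within 1.5 times. The pseudocount of 0.1 added 17 calls and lost none. Median-of-ratios scaling lost 8 calls and quantile normalization lost 11, all against microglia, and both added Dbx2 as higher in microglia than in neurons (log2 differences -1.01 and -1.01). With either scaling 9 genes were enriched in astrocytes, as Meis1 no longer was. With the replicate number as a block, 15 genes were again called higher in neurons than in microglia and 4 in microglia, and none of the 120 results changed its call. Without microglia libraries 1 and 2, 1 call was lost (Zeb1 in astrocytes over microglia) and 2 were gained. Without libraries 1 and 2 of every cell type 1 was lost and 6 gained, and without libraries 3 and 4 of every cell type 1 was lost and 2 gained. With each library left out in turn, counts ranged from 4 to 5 for neurons over astrocytes, 10 to 11 for astrocytes over neurons, 14 to 16 for neurons over microglia and 19 to 20 for astrocytes over microglia, and were 4 for microglia over either. Paralog balance differed in 8 to 10, 6 to 7 and 6 to 8 pairs in the 3 comparisons. A paired exact test of 5 pairs cannot go below 0.0625 and was not used. TPM gives no depth, so the counting error of genes near 1 TPM is unknown.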

Other observations

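Homeobox genes outside the 43 were led by genes of other lineages. The filter kept 30 of 169 further homeobox genes. Between neurons and astrocytes 3 were called higher in neurons and 5 in astrocytes, against microglia 16 were higher in neurons and 5 in microglia, and between astrocytes and microglia 16 were higher in astrocytes and 4 in microglia. Over all tested genes, 12.9% were called higher in neurons than in astrocytes and 12.7% higher in astrocytes. Against microglia, 29.5% were called higher in neurons and 9.74% in microglia, and 32.3% in astrocytes and 10.2% in microglia. The median log2 difference of the 30 genes was 1.19 for neurons minus microglia, beside 0.48 over all tested genes, and 1.09 for astrocytes minus microglia, beside 0.57. Hhex, known from blood and endothelial cells, measured 82.4 ± 32.6 TPM for microglia, 15.9 ± 2.06 for neurons and 3.09 ± 0.737 for astrocytes. Lbx2 measured 18.2 ± 6.14 TPM in microglia and 0.45 ± 0.424 and 0.11 ± 0.175 in neurons and astrocytes. Pou2f2, the gene of the lymphoid octamer factor OCT2, measured 10.1 ± 3.22 TPM in microglia and 0.588 ± 0.416 and 0.274 ± 0.178 in the others. Lbx2 and Pou2f2 were called higher in microglia than in both (limma).

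Msx1 measured 23.4 ± 4.28 TPM for astrocytes, 13.5 ± 4.08 for neurons and 1.362 ± 0.611 for microglia. Homez measured 7.26 ± 1.63 TPM in astrocytes and 2.40 ± 1.19 in neurons, a called difference of 2.52-fold (limma adjusted p = 3.22e-04). Nkx6-2, an oligodendrocyte gene, measured 15.1 ± 14.8 TPM in microglia, whose libraries differed in oligodendrocyte markers from 254 to 69871 TPM; their part in its value was not tested.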
